A study of Mus musculus with 12 samples.

Results

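The comparison described here set tumor-associated macrophages (TAMs) that carried a myeloid deletion of AMPK against wild-type TAMs, in 6 of the 12 samples of the series, 3 AMPK-KO and 3 WT, and followed all genes in the count table of that experiment. The WT mice were AMPKfl/fl and the AMPK-KO mice were AMPKfl/flLyz2cre/cre by the sample titles, so that both groups carried the floxed alleles and only the latter the cre. Effects of the cre alleles themselves and of the deletion therefore cannot be told apart in this comparison. The genotype fields of AMPK-KO replicates 2 and 3 write Lyz3 and Lyz4 in place of Lyz2, and the titles were followed. Per the study's methods, the floxed gene was the AMPK α1 subunit gene, WT mice were littermates on a C57BL/6 background, and the cre stood under the promoter of lysozyme M, which is active in macrophages, monocytes and neutrophils and is not confined to tumors. B16-F10 melanoma cells, a mouse line, had been implanted under the skin. TAMs were sorted at day 15 by flow cytometry as CD45+CD11b+Ly6C-Ly6G-F4/80+ cells and sequenced in bulk. Figure legends of the supplement instead write Ly6C+, and in part Ly6G+, for TAMs, and the methods were followed. The labels do not say whether the samples of a group came from separate animals or pools, so p-values measure only the spread between these samples, which may be technical. The methods name female mice, whereas the Y-linked gene Ddx3y was counted in every sample, at 47.1, 45.3 and 48.3 CPM in WT and 57.4, 60.9 and 52.4 CPM in AMPK-KO, where CPM are counts per 1000000 library counts after TMM scaling.

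AMPK is a kinase of catalytic and regulatory subunits that senses low cellular energy, switches on processes that yield ATP, such as fatty acid oxidation and autophagy, and restrains those that use it, such as lipid and protein synthesis. In macrophages it is known for damping inflammatory signalling. TAMs arise largely from recruited monocytes and range from cells that present antigen and respond to interferon to cells that scavenge debris, store lipid, recycle iron and remodel matrix.

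Library totals ranged from 71019494 to 81671067 counts, and 17532 of 55401 genes passed the filter on low counts. The targeted gene, Prkaa1 (chromosome 15, 5143861 to 5181899, GRCm38), stood at 68.8, 62.8 and 63.3 CPM in WT and 47.0, 40.9 and 40.8 CPM in AMPK-KO. It was 1.51-fold lower (log2 difference -0.60 ± 0.07 (SE), adjusted p = 0.000226, edgeR quasi-likelihood test with Benjamini-Hochberg adjustment, as for every adjusted p given here). The 6 samples did not overlap, but reads remained in AMPK-KO. Counts cover the whole gene, and the deleted stretch is not given in the sources used here. Among the other subunit genes, the catalytic Prkaa2 was at 1.19, 1.18 and 0.944 CPM in WT and 0.420, 0.686 and 0.656 CPM in AMPK-KO (adjusted p = 0.0875), and Prkab1, Prkab2, Prkag1 and Prkag2 had adjusted p between 0.0773 and 0.935. Of the upstream genes, Camkk1, a calcium-dependent kinase that can activate AMPK, was higher (log2 difference 0.90) and Stradb, a partner of the kinase LKB1, was lower (-0.38). The call of Stradb was lost without AMPK-KO replicate 2 (-0.32, adjusted p = 0.0655) and without WT replicate 3 (-0.39, adjusted p = 0.0521). Lyz2, whose promoter drives the cre, was at 9.32, 13.5 and 9.16 CPM in WT and 9.16, 10.96 and 13.5 CPM in AMPK-KO, and the groups overlapped. Its neighbour and close copy Lyz1 was at means of 325 CPM in WT and 490 CPM in AMPK-KO. How reads shared between copies were counted is not stated, so the level of Lyz2 is uncertain.

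A gene was called at an adjusted p under 0.05 and termed differentially expressed when its log2 difference, AMPK-KO minus WT, was also above 1 in size, the fold threshold of the study. Of the tested genes 21.1% were called, 11.3% as higher and 9.78% as lower, and 3.34% were differentially expressed, 2.05% higher and 1.28% lower. Calls were more frequent at high levels. Of 2177 genes with a mean of 100 CPM or more, 44.9% were called, against 3.33% of the 4382 genes under 1 CPM. The median log2 difference over all tested genes was -0.0037, with quartiles of -0.22 and 0.22. Thus most calls were small, 3108 of the 3693 being changes of 1 or less on the log2 scale. Counts without AMPK-KO replicate 2 (2419 called) or without WT replicate 3 (2414 called) were lower by over 1.5 times. The differentially expressed genes with a mean of at least 10 CPM numbered 182, of which 129 were higher and 53 lower. In 24 of the 585 differentially expressed genes 1 group was at or under 3 counts in every library, and the fitted differences of those genes rest on the prior count.

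**Figure D1:**
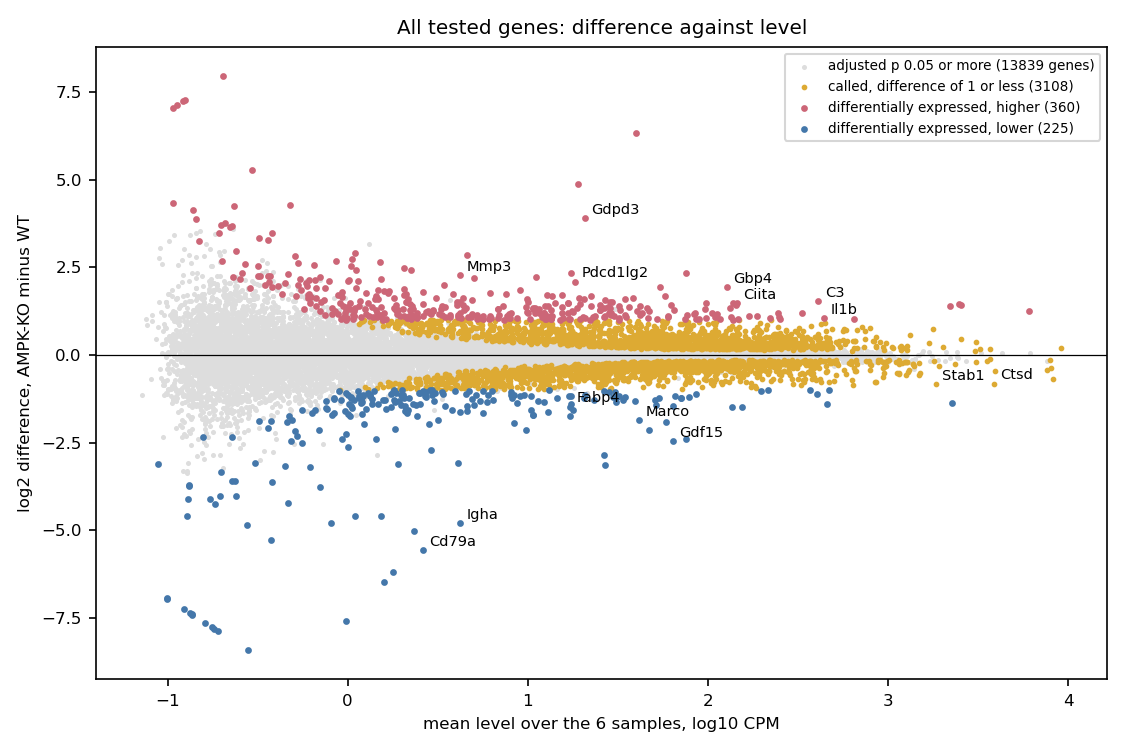
Each point is 1 of the 17532 tested genes, by its mean level over the 6 samples (x axis, log10 CPM) and its log2 difference, AMPK-KO minus WT (y axis). Grey points were not called, yellow points were called with a difference of 1 or less, and the 360 red and 225 blue points were differentially expressed. Most points beyond 5 in size lie at the low end of the x axis.

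The genes were read through 43 lists that cover 1131 tested genes, with some genes in more than 1 list. In 37 of the lists the share of members called was above the 21.1% of all tested genes. The lists were chosen with earlier results of these data known and were not matched to all genes for level, with which calls rose. That number is therefore no test of how broad the change was. The lists with the highest medians were those of MHC class II, of the guanylate-binding proteins, of C-type lectins and NK-type receptors, of MHC class I and of the interferon gamma pathway. At the other end stood scavenger genes, NRF2 targets, heat shock proteins, the unfolded protein response and lipid uptake. Only 90 of the 585 differentially expressed genes belong to a list, and 495 to none.

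**Figure D2:**
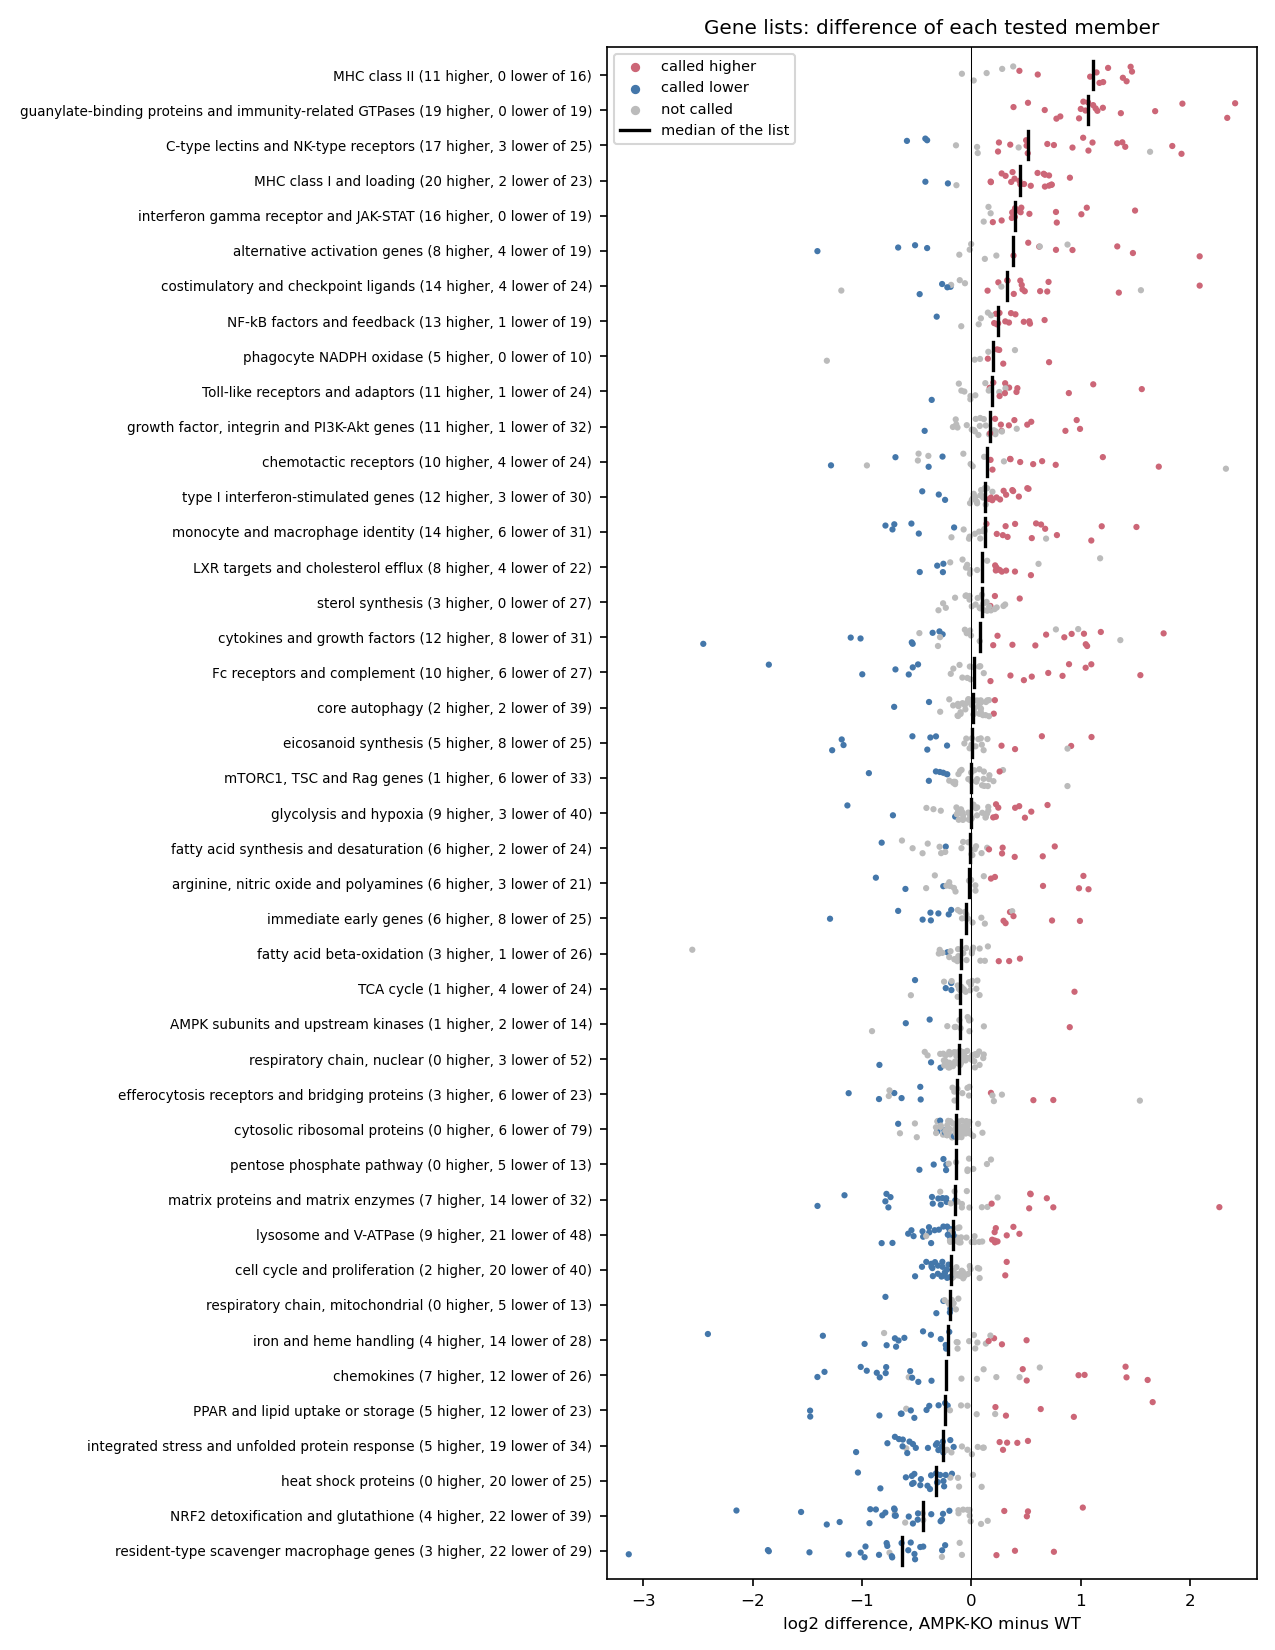
Each point is a tested member of a gene list (y axis, ordered by the median of the list, which is drawn as a black bar) at its log2 difference, AMPK-KO minus WT (x axis). Red points were called higher, blue points lower and grey points were not called, with the counts of each list beside its name. The members of the MHC class II list have a median of 1.12 and those of the scavenger list one of -0.64.

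Marker lists of macrophages and of other cells of the tumor were followed in each sample, although the gate of the methods would by design remove neutrophils, T cells and CD45- cells such as fibroblasts, endothelial cells and melanoma cells. The 10 macrophage markers summed to 12560 to 13955 CPM in WT and to 12723 to 13090 CPM in AMPK-KO, and the groups overlapped. The sums of monocyte markers (522 to 553 CPM in WT, 854 to 881 in AMPK-KO), neutrophil markers (112 to 119 and 184 to 186), T cell markers (134 to 151 and 239 to 241), NK cell markers (61.9 to 68.2 and 166 to 172), fibroblast markers (601 to 648 and 804 to 878) and endothelial markers (57.0 to 69.1 and 125 to 128) did not overlap and were higher in AMPK-KO. Those of B16 melanoma (1036 to 1040 in WT, 703 to 744 in AMPK-KO), erythroid cells (22.5 to 25.1 and 7.66 to 9.17) and platelets (623 to 808 and 309 to 365) were lower in AMPK-KO. Single genes carried some of these sums. The platelet sum was nearly all Pf4 and Ppbp, which are chemokine genes and the members called lower, whereas Itga2b (log2 difference 0.23) and Treml1 (0.15) were not called. Csf3r, the G-CSF receptor gene, made up most of the neutrophil sum, with means of 96.5 CPM in WT and 154 CPM in AMPK-KO. Of the 7 tested neutrophil markers 4 were called higher and 0 lower. The defining markers Ly6g and Ngp (neutrophil) and Prss34 and Ms4a2 (basophil or mast cell) had no count in any sample. The part of such cells in the results that follow was not tested beyond the values given beside them. In bulk RNA, fewer cells of a type and less RNA of a gene per cell cannot be told apart.

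**Figure D3:**
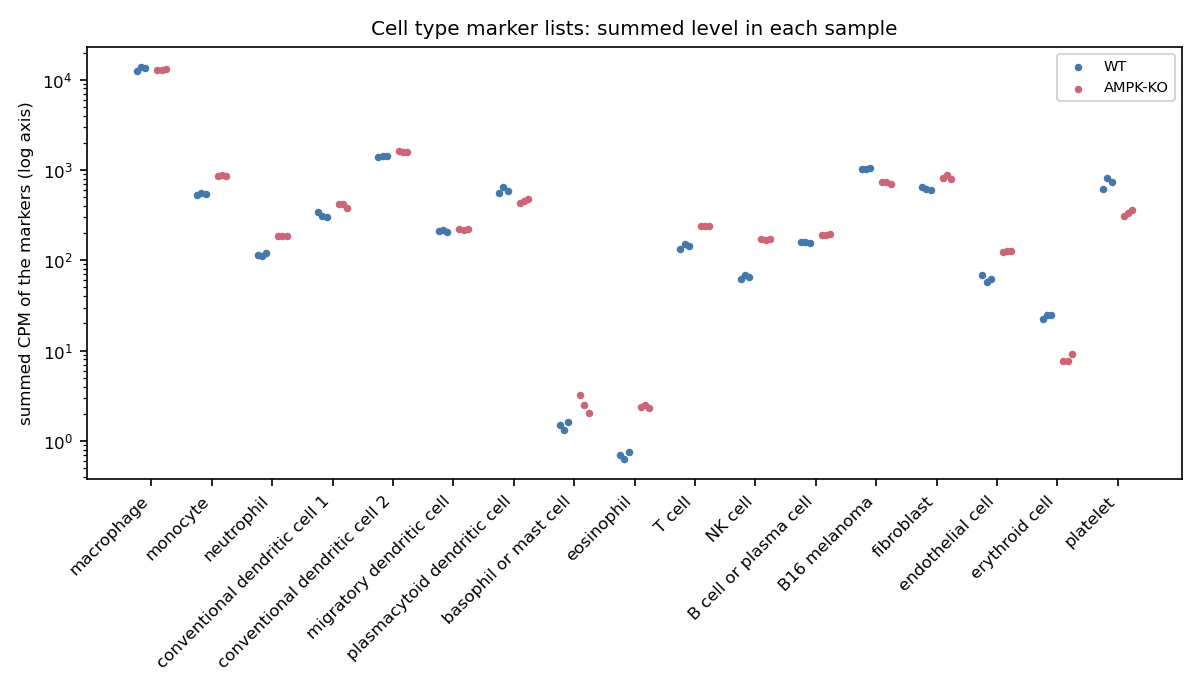
The summed level of the markers of each cell type (x axis) is shown in CPM on a log axis (y axis), with 1 point per sample, blue for WT and red for AMPK-KO. The macrophage sums overlap, the NK cell sums lie at 61.9 to 68.2 CPM in WT and 166 to 172 in AMPK-KO, and the melanoma sums lie lower in AMPK-KO.

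AMPK-KO TAMs expressed more of the genes that load and display antigen. MHC class II molecules present peptides from the endocytic route to CD4+ T cells, and their genes are switched on together by the transactivator Ciita. Ciita (chromosome 16, 10480059 to 10528418) stood at 80.4, 73.0 and 77.2 CPM in WT and 219.7, 222 and 197 CPM in AMPK-KO. It rose 2.77-fold (log2 difference 1.47 ± 0.06 (SE), adjusted p = 2.72e-07), and every AMPK-KO sample was above every WT sample. H2-Ab1, which encodes a chain of the class II molecule I-A, stood at 1274, 1481 and 1380.0 CPM in WT and 3452, 3774 and 3846 CPM in AMPK-KO and rose 2.68-fold (adjusted p = 2.45e-07). Of the list, 11 of 16 tested members were called higher and 0 lower, with a median log2 difference of 1.12. Ctss, a cathepsin that trims the class II invariant chain, rose by less (log2 difference 0.44, adjusted p = 0.000358). Marker sums of conventional dendritic cells, which also carry class II, were higher in AMPK-KO as well, at 379 to 422 CPM against 305 to 339 CPM for type 1 and at 1577 to 1621 CPM against 1399 to 1444 CPM for type 2. Of the type 1 markers 6 of 7 tested were called higher and 0 lower, with a median log2 difference of 0.36. Of the type 2 markers 7 of 8 were called higher and 1 lower, with a median of 0.64. The lower one was Clec10a (log2 difference -0.40). Sirpa, which macrophages express too, made up most of the type 2 sum, with means of 1115 CPM in WT and 1236 CPM in AMPK-KO.

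The class I pathway, which shows peptides of cytosolic proteins to CD8+ T cells, moved by smaller steps. Its transactivator Nlrc5 was at 154, 132 and 138 CPM in WT and 232, 237 and 223 CPM in AMPK-KO (log2 difference 0.71 ± 0.06 (SE), adjusted p = 2.43e-05). Tap1, a subunit of the transporter that carries peptides into the endoplasmic reticulum, was at 368, 365 and 372 CPM in WT and 619.7, 612 and 609 CPM in AMPK-KO and rose 1.67-fold (adjusted p = 9.47e-07). H2-T22, a nonclassical class I gene, rose by 0.61 on the log2 scale. H2-Q6 rose by 0.90, but it has near-identical neighbours, and how reads shared between copies were counted is not stated. In all, 20 of 23 tested members were called higher, 2 lower and the median was 0.45. The 2 lower members, Calr (log2 difference -0.42) and Pdia3 (-0.21), are chaperones of the endoplasmic reticulum that fold many other proteins too.

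Genes of the response to interferon gamma rose with them. Interferon gamma acts through the JAK kinases on factors that bind GAS elements and induces further factors such as IRF1, and the guanylate-binding proteins (GBPs) and immunity-related GTPases are among its best known targets and act against intracellular microbes. Promoter sequences are shown for the differentially expressed members with the smallest adjusted p whose promoter held a motif, to let the elements be seen beside the values. They were taken from RefSeq (GRCm38.p6) on the gene's strand, 5′ to 3′, with 40 bases on either side of the first match. Genes without a promoter in the RefSeq table, such as Gbp4, were not searched. Capitals in the first set mark an interferon response element, which reads GAAA, 2 bases of any kind and GAAA again, on either strand. In Gbp3 the capitals span 2 overlapping matches.
Gbp2b (chr3:142594670-142594759, + strand): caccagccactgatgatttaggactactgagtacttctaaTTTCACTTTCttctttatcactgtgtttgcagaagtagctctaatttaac
Gbp2 (chr3:142620564-142620653, + strand): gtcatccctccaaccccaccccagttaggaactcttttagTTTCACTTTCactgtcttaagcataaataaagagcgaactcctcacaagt
Gbp3 (chr3:142559959-142560048, + strand): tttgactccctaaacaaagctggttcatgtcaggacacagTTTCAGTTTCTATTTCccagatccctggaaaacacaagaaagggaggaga

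In the second set, capitals mark a GAS, TTCNNNGAA, which reads the same on both strands.
Irf1 (chr11:53769884-53769972, + strand): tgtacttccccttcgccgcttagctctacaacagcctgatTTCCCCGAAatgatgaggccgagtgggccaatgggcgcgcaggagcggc
Tgtp2 (chr11:49064245-49064333, - strand): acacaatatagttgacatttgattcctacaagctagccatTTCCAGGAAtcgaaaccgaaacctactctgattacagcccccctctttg
Tgtp1 (chr11:48992286-48992374, - strand): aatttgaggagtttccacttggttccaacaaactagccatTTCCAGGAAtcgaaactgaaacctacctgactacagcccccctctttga

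Gbp2, whose element lay 59 bases before the start, stood at 198, 198 and 206 CPM in WT and 476, 458 and 451 CPM in AMPK-KO and rose 2.3-fold (log2 difference 1.20 ± 0.04 (SE), adjusted p = 1.18e-07). Gbp3, whose matches began 45 bases before the start, rose from 86.4, 89.6 and 84.6 CPM to 181, 182 and 183 CPM. Gbp4, which overlaps Gbp8 and Gbp9 on the same strand so that reads can be shared, was at 56.1, 51.5 and 50.9 CPM in WT and 214, 199 and 191 CPM in AMPK-KO (3.81-fold higher). All 19 tested members of the list were called higher, with a median of 1.07. The copies Tgtp1 and Tgtp2 rose by 1.14 and 1.00, and their promoters hold the same 9 letters, but reads of near-identical genes can be split between them.

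Upstream, Irf1, whose GAS began 90 bases before the start, was at 142, 145 and 144 CPM in WT and 310.2, 288 and 298 CPM in AMPK-KO (2.08-fold higher, adjusted p = 3.30e-07). Socs1, which is induced by the pathway and inhibits the JAK kinases, was at 13.1, 16.7 and 14.9 CPM in WT and 40.02, 41.4 and 44.8 CPM in AMPK-KO (2.82-fold higher). Of the receptor and JAK-STAT list, 16 of 19 tested members were called higher and 0 lower (median 0.40). The gene of the ligand itself, Ifng, was at 1.89, 3.23 and 3.36 CPM in WT and 9.42, 10.3 and 9.001 CPM in AMPK-KO (3.39-fold higher, adjusted p = 0.000148). Ifng is expressed by T and NK cells, whose marker sums were higher in the same samples (134 to 151 CPM in WT and 239 to 241 CPM in AMPK-KO for T cells, 61.9 to 68.2 and 166 to 172 CPM for NK cells). Ifng overlaps Gm49751 on the same strand and Tap1 overlaps Psmb9 on the other, and whether the counting used strand is not given in the sources used here.

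The list of type I interferon-stimulated genes held 12 higher, 3 lower and 15 members not called of 30 tested (median 0.13), with 26 differences above 0 and 4 below. Parp14, an ADP-ribosyltransferase, was at 321, 259 and 293 CPM in WT and 425, 425 and 396 CPM in AMPK-KO (1.43-fold higher). Irf7, the factor that amplifies type I interferon, rose by 0.38 on the log2 scale and the antiviral GTPase Mx1 by 0.38. Rsad2, the antiviral enzyme viperin, fell from 196, 190.2 and 201 CPM to 174, 164 and 159 CPM, and Oasl1, which restrains Irf7 translation, fell from 197, 198 and 193 to 157, 154 and 167 CPM.

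Across promoters, an interferon response element was found in 3.96% of the 11729 tested genes with a promoter in the RefSeq table, in 11.3% of the 238 differentially expressed genes that were higher and in 7.19% of the 139 that were lower. In the GBP list it was found in 90.9% of 11 genes, in the type I list in 59.1% of 22 and in the class I list in 25% of 20. GAS matches were found in 8.37% of all tested genes, in 16.4% of the higher and 7.91% of the lower differentially expressed genes and in 54.5% of the GBP list. With all called genes in place of differentially expressed genes, the GAS share of the higher genes was 10.5% and the interferon element share of the lower genes was 3.35%. A gene was counted when any of its listed promoters held the letters, and some letters belong to more than 1 motif. These matches describe letters only.

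**Figure D4:**
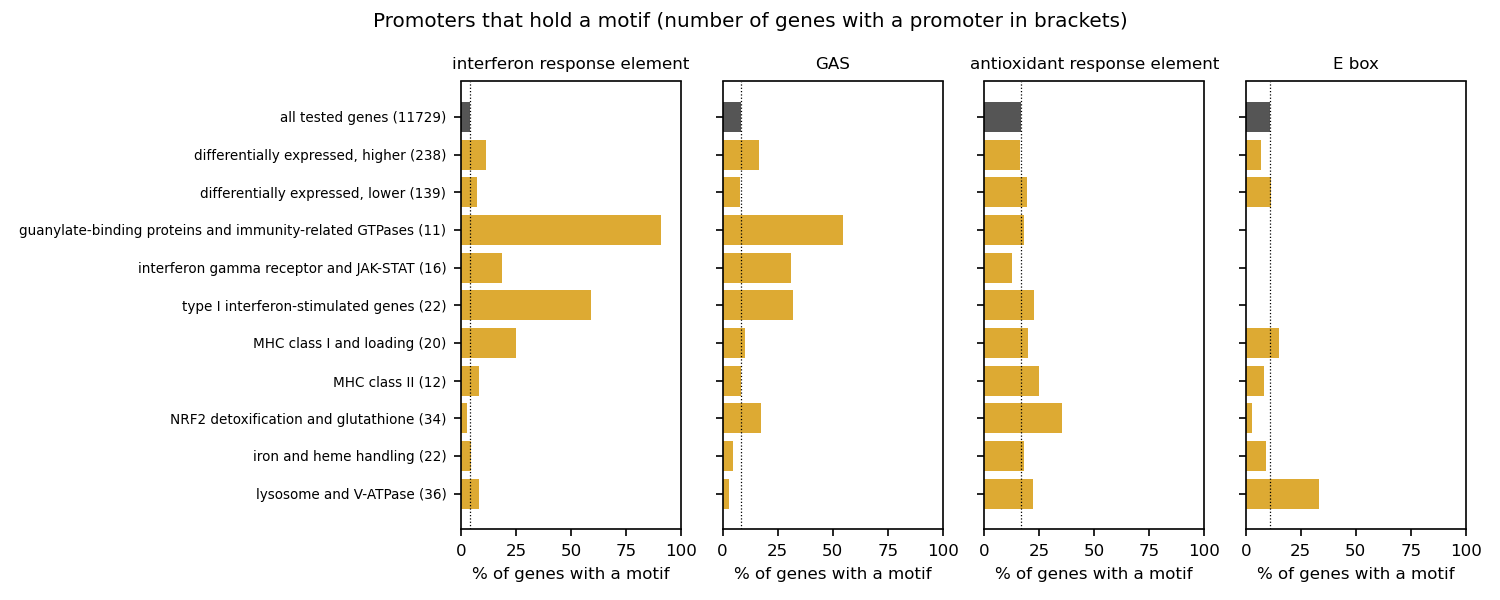
Bars show the percent of genes (x axis) with at least 1 match of each motif in a promoter window of 250 bases before to 50 bases after the start, for the sets named on the y axis with their number of genes. The dark bar and dotted line give all tested genes. The interferon response element reaches 90.9% in the GBP list against 3.96% of all tested genes.

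Ligands and receptors of immune cell traffic did not move as a block. Of 26 tested chemokine genes 7 were higher and 12 lower (median -0.23). Cxcl9, a target of interferon gamma that draws T cells through CXCR3, stood at 157, 172 and 167 CPM in WT and 354, 327 and 337 CPM in AMPK-KO (2.05-fold higher). Ccl5, which attracts T cells and monocytes, rose from 27.4, 39.5 and 35.6 to 88.3, 87.7 and 96.6 CPM, and Cxcl14 rose by 1.61 on the log2 scale. Several ligands of other receptors were lower. The monocyte chemokine Ccl2 stood at 730.0, 873 and 870.4 CPM in WT and 464, 434 and 461 CPM in AMPK-KO (1.82-fold lower), with log2 differences of -1.34 for the neutrophil chemokine Cxcl1 and -1.41 for the eosinophil chemokine Ccl24. Ppbp, a chemokine best known from platelets, was at 85.1, 91.6 and 100.4 CPM in WT and 25.9, 25.4 and 22.99 CPM in AMPK-KO (3.73-fold lower). It is itself a member of the platelet marker list given above.

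Among receptors 10 of 24 were higher and 4 lower. Cxcr6, found on T cells and NKT cells, was at 7.59, 6.63 and 7.57 CPM in WT and 22.1, 24.6 and 24.8 CPM in AMPK-KO (3.28-fold higher), beside the higher T cell marker sum, and it overlaps Fyco1 on the other strand. The receptor of CCL2, Ccr2, which marks recently recruited monocytes, rose 1.71-fold and the formyl peptide receptor Fpr2 2.3-fold. C5ar1, the receptor of complement C5a, was at 507, 515 and 522 CPM in WT and 322, 322 and 312 CPM in AMPK-KO (1.62-fold lower). S1pr1, which guides cells out of tissues, was lower as well (log2 difference -1.28).

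Cytokine genes moved both ways, with 12 of 31 higher and 8 lower. The inflammatory cytokine gene Il1b stood at 278, 294 and 292 CPM in WT and 597, 579.8 and 609 CPM in AMPK-KO (2.07-fold higher, adjusted p = 2.56e-07), and none of the WT samples reached an AMPK-KO sample. Tnfsf13b, which encodes the B cell survival factor BAFF, rose from 6.21, 6.62 and 7.22 to 14.4, 16.3 and 14.9 CPM. Il18bp, a secreted antagonist of IL-18 that interferon gamma induces, rose 2.04-fold, but it overlaps Numa1 on the other strand. Some growth factors were lower. Gdf15, a stress-induced member of the TGF-β family, was at 99.7, 109.9 and 116 CPM in WT and 20.6, 21.99 and 16.9 CPM in AMPK-KO (5.47-fold lower, adjusted p = 2.21e-07). Igf1 was at 116, 115 and 119 CPM in WT and 59.2, 56.2 and 47.4 CPM in AMPK-KO (2.15-fold lower) and Pdgfa fell from 15.0, 19.2 and 18.3 to 7.495, 9.85 and 8.68 CPM.

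Of the checkpoint and costimulatory ligands 14 of 24 tested were higher, with 4 lower and a median of 0.33. Pdcd1lg2, the gene of PD-L2, a ligand of PD-1, was at 6.37, 6.58 and 7.95 CPM in WT and 28.7, 30.7 and 29.6 CPM in AMPK-KO (4.25-fold higher, adjusted p = 6.63e-07). Cd226, an activating receptor of NK and T cells that myeloid cells can also carry, rose from 5.57, 6.88 and 6.13 to 15.6, 17.7 and 14.1 CPM, and Pilra, an inhibitory receptor of myeloid cells, rose 1.55-fold. The members called lower were Cd276 (-0.47), Pvr (-0.22), Siglec1 (-0.27) and Lgals9 (-0.19). Pvr lost its call when AMPK-KO replicate 2, AMPK-KO replicate 3, WT replicate 1, WT replicate 2 or WT replicate 3 was left out (adjusted p of 0.0521 to 0.132). Lgals9 lost it when AMPK-KO replicate 1, AMPK-KO replicate 2, WT replicate 2 or WT replicate 3 was left out (adjusted p of 0.0533 to 0.0735).

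Innate sensing was modestly higher. Of 24 tested Toll-like receptor genes and adaptors 11 were higher and 1 lower (median 0.19). Tlr9, the endosomal receptor of unmethylated DNA, was at 79.1, 63.6 and 68.0 CPM in WT and 137, 136 and 118 CPM in AMPK-KO (1.86-fold higher), and Unc93b1, which carries such receptors to endosomes, rose 1.27-fold. Among NF-κB genes 13 of 19 were higher. Nfkb1 stood at 197, 198 and 199 CPM in WT and 260.5, 264 and 262 CPM in AMPK-KO (1.32-fold higher), and Nfkbia, which encodes the inhibitor IκBα, was the only member called lower, at 312, 346 and 347 CPM in WT and 271, 276 and 260.4 CPM in AMPK-KO (adjusted p = 0.00212). Immediate early genes were split, 6 higher and 8 lower of 25. Myc, at 57.5, 58.6 and 59.4 CPM in WT and 37.3, 37.3 and 35.8 CPM in AMPK-KO, fell 1.59-fold, and Jun fell 1.3-fold, whereas Btg2, an antiproliferative gene, rose 1.67-fold.

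**Figure D5:**
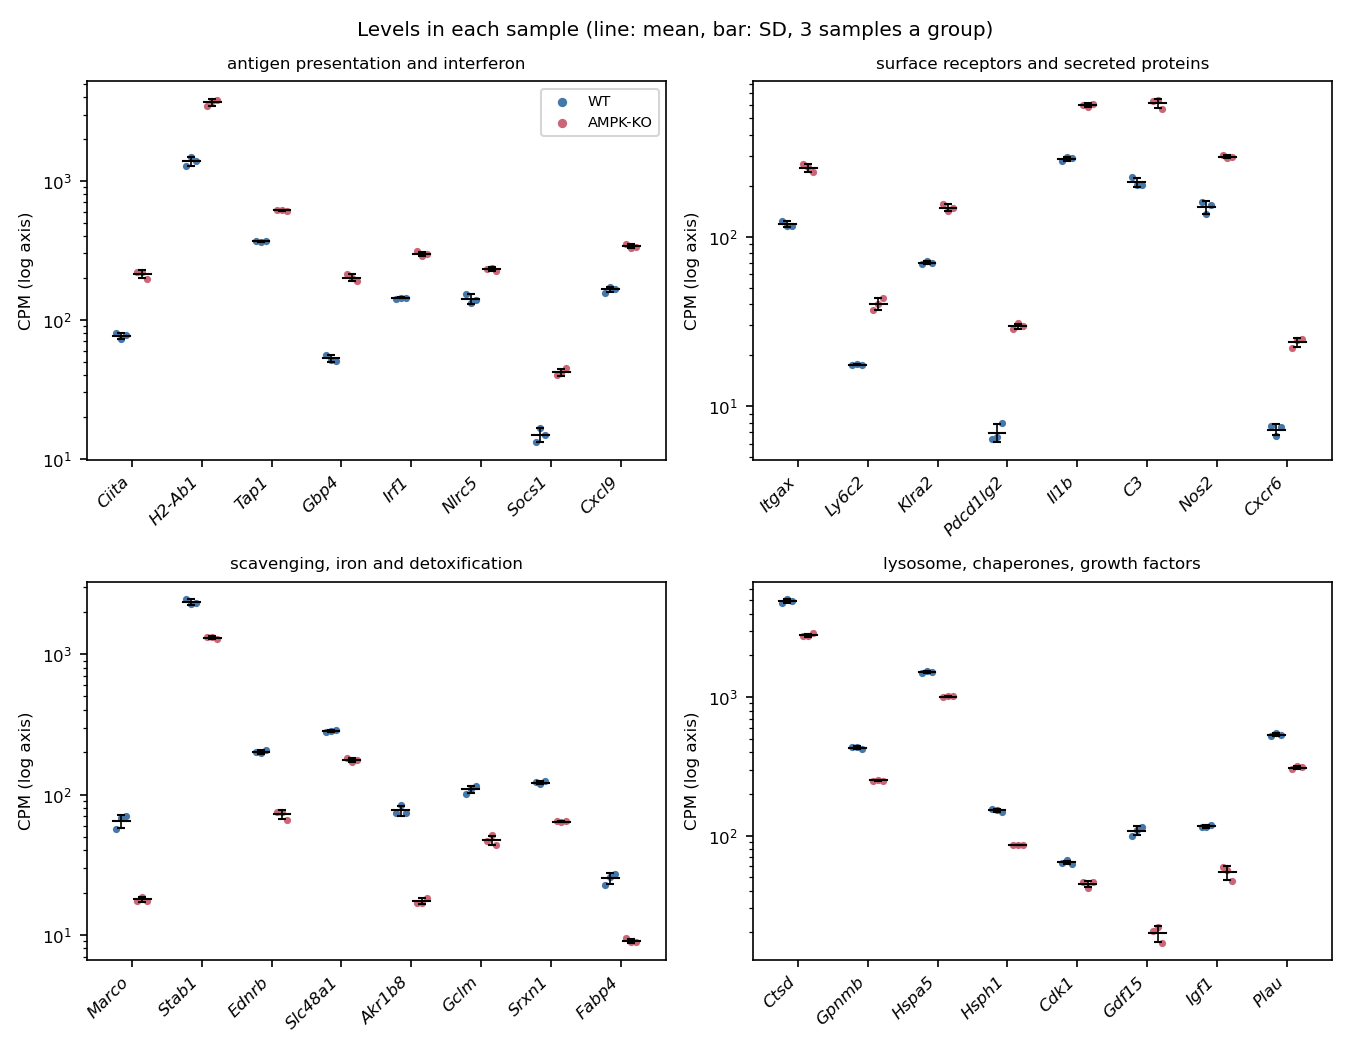
Levels of 32 genes in each sample are shown in CPM on log axes (y axis), grouped by function in 4 panels, with WT in blue and AMPK-KO in red. Black lines are means and bars are SDs over 3 samples. The groups do not overlap for the genes shown, as for 6520 of the 17532 tested genes.

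Surface receptors of the natural killer gene complex and related lectins rose in the sorted cells. The list of C-type lectins and NK-type receptors held 17 higher and 3 lower members of 25 (median 0.52). Clec7a, the β-glucan receptor Dectin-1, was at 76.3, 70.6 and 78.1 CPM in WT and 191, 192 and 185 CPM in AMPK-KO (2.52-fold higher, adjusted p = 2.21e-07). Klra2, a Ly49-type receptor found on myeloid cells, was at 68.8, 72.0 and 70.3 CPM in WT and 156, 141 and 147 CPM in AMPK-KO (2.1-fold higher). Lower members were Clec4n (-0.42), Clec4d (-0.59) and Clec10a (-0.40), lectins of macrophages and dendritic cells. Receptors that T and NK cells carry rose too, beside T and NK marker sums that were higher in AMPK-KO. Gzmb, the gene of granzyme B, was at 17.5, 20.6 and 18.3 CPM in WT and 59.5, 57.4 and 57.5 CPM in AMPK-KO (3.09-fold higher).

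Monocyte and macrophage identity genes gave 14 higher and 6 lower of 31. Itgax, the gene of CD11c, was at 124, 116 and 116 CPM in WT and 267, 256 and 239 CPM in AMPK-KO (2.14-fold higher). Ly6c2, whose protein was excluded by the gate of the methods but not by that of the supplement, was at 17.5, 17.8 and 17.5 CPM in WT and 37.1, 39.8 and 43.6 CPM in AMPK-KO (2.29-fold higher). Ear2, a ribonuclease gene of patrolling monocytes and eosinophils with close copies, rose 2.85-fold. The lineage factor Spi1 (PU.1) was at 459, 505 and 482 CPM in WT and 504, 506 and 547 CPM in AMPK-KO and was not called (adjusted p = 0.186). Gpnmb, a glycoprotein gene of macrophages and melanocytes, at 438, 436 and 421 CPM in WT and 249.8, 253 and 248 CPM in AMPK-KO, fell 1.72-fold, and the endosomal glycoprotein genes Cd68 and Cd63 fell 1.46-fold and 1.65-fold. Melanoma cells express Gpnmb and Cd63 too, and the B16 marker sums were lower in the same samples (1036 to 1040 CPM in WT, 703 to 744 CPM in AMPK-KO), a part that was not tested. Of the defining macrophage markers, Csf1r, the receptor of the growth factor CSF1, was called slightly higher (log2 difference 0.14, adjusted p = 0.0177), and Adgre1, the gene of F4/80, was not called (0.12, adjusted p = 0.102).

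Scavenger genes typical of tissue-resident macrophages had the lowest median of the 43 gene lists. Of 29 tested members 22 were lower and 3 higher, with a median of -0.64. Marco, a scavenger receptor for bacteria and particles, was at 56.9, 67.9 and 69.8 CPM in WT and 17.4, 18.8 and 17.5 CPM in AMPK-KO (3.63-fold lower, adjusted p = 3.86e-07). Stab1, which takes up modified lipoproteins and cell debris, was at 2483, 2273 and 2328 CPM in WT and 1337, 1332 and 1278 CPM in AMPK-KO (1.79-fold lower). Mrc1, the mannose receptor CD206, fell less, from 1850.0, 1679 and 1771 to 1299, 1268 and 1143 CPM. Ednrb, the endothelin B receptor, stood at 199.8, 197 and 207 CPM in WT and 75.6, 74.5 and 66.3 CPM in AMPK-KO (2.79-fold lower), and Gas6, the ligand that bridges dying cells to the receptors Axl and Mertk, at 530.2, 572 and 549.9 CPM in WT and 247, 255 and 258 CPM in AMPK-KO (2.18-fold lower).

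Spic, which red pulp macrophages need, was at 13.05, 16.3 and 15.7 CPM in WT and 7.62, 7.27 and 8.04 CPM in AMPK-KO (log2 difference -0.98, adjusted p = 0.00018). The 3 higher members were Cd209a (0.76), which is also a dendritic cell marker, Nr1h3 (0.40) and Scarb1 (0.23), both genes of cholesterol handling. The call of Scarb1 was lost without AMPK-KO replicate 1 (0.20, adjusted p = 0.0611) and without WT replicate 3 (0.22, adjusted p = 0.0645). Efferocytosis genes, whose products engulf dying cells, held 3 higher and 6 lower of 23, with 39.1% called against 21.1% of all tested genes. Axl rose 1.48-fold and Cd300lf 1.68-fold, while Gas6, Stab1 and Cd36 fell.

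Genes of alternative activation, the state that IL-4 induces, were divided between 8 higher and 4 lower of 19. Retnla, a secreted marker of that state, was at 45.6, 55.9 and 53.9 CPM in WT and 137, 142 and 155 CPM in AMPK-KO (2.79-fold higher), whereas Mrc1 and Ccl24 fell. Arg1, the arginase gene, was at 884, 955 and 916 CPM in WT and 908, 934 and 911 CPM in AMPK-KO and did not differ beyond its spread (adjusted p = 0.99). It is named beside Nos2, its competitor for arginine, which rose 1.98-fold, at 161, 135 and 153 CPM in WT and 304, 291 and 294 CPM in AMPK-KO (adjusted p = 3.27e-06). Other genes of nitric oxide synthesis rose with Nos2, namely Ass1 (1.03), which remakes arginine from citrulline, and the arginine transporter gene Slc7a2 (1.07). Polyamine genes Odc1 (-0.26) and Srm (-0.60) were lower.

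Complement and Fc receptor genes gave 10 higher and 6 lower of 27. C3, the central complement protein, was at 225, 202 and 201 CPM in WT and 630.2, 638 and 566 CPM in AMPK-KO (2.92-fold higher, adjusted p = 2.21e-07). Fcgr4, an activating receptor for IgG, rose from 289, 304 and 299 to 562, 538 and 557 CPM, and Fcgrt, which recycles IgG, fell from 362, 399.5 and 395 to 248, 274 and 277 CPM. All 5 called genes of the phagocyte NADPH oxidase, which makes superoxide, were higher of 10 tested. Its catalytic subunit gene Cybb was at 533, 479.9 and 507 CPM in WT and 879, 861 and 750.2 CPM in AMPK-KO (1.64-fold higher).

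Of 28 tested iron and heme genes 14 were lower, with 4 higher and a median of -0.22. Slc48a1, which exports heme from the phagolysosome after red cells are digested and overlaps Hdac7 on the other strand, was at 280.2, 285 and 289 CPM in WT and 181, 169.8 and 176 CPM in AMPK-KO (1.62-fold lower, adjusted p = 3.31e-06). Bach1, the heme-sensing repressor of heme oxygenase, was at 178, 154 and 167 CPM in WT and 205, 210.4 and 189 CPM in AMPK-KO (log2 difference 0.28, adjusted p = 0.0112), a call that was lost without AMPK-KO replicate 2 (0.25, adjusted p = 0.0665) and without WT replicate 3 (0.28, adjusted p = 0.0571). Slc11a1, which pumps iron out of the phagosome, rose by 0.21. Erythroid marker sums were lower in AMPK-KO, as given above, and their part in these values was not tested.

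NRF2 is the factor that switches on detoxification and glutathione genes through antioxidant response elements (AREs) and many genes of its list fell. Of 39 tested members 22 were lower and 4 higher (median -0.44). Nfe2l2, the gene of NRF2, was at 160.1, 159.7 and 158 CPM in WT and 172, 165 and 171 CPM in AMPK-KO, and Keap1, its inhibitor, was at 97.0, 103 and 96.6 CPM in WT and 95.2, 99.4 and 98.9 CPM in AMPK-KO, neither of them called (adjusted p = 0.209 and 0.885). Akr1b8, an aldo-keto reductase, was at 73.3, 84.1 and 73.7 CPM in WT and 16.7, 16.98 and 18.4 CPM in AMPK-KO (4.43-fold lower, adjusted p = 8.38e-08). Gclm, the modifier subunit of the enzyme that limits glutathione synthesis, which overlaps Gm17494 on the other strand, was at 101, 110.0 and 115 CPM in WT and 46.8, 51.2 and 43.7 CPM in AMPK-KO (2.3-fold lower). Only genes with a promoter in the RefSeq table could be searched, 34 of 39 in the NRF2 list and 22 of 28 in the iron list. The lower differentially expressed iron genes Hmox1 and Slc40a1 have no entry there and were not searched. Of the differentially expressed genes of these lists that could be searched, only Gclm was found to hold the ARE letters TGACNNNGC. They are shown here in capitals on the other strand, 134 bases before the start.
Gclm (chr3:122245383-122245471, + strand): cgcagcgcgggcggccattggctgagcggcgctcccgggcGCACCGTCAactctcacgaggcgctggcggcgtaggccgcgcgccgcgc

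The ARE letters were found in 35.3% of 34 NRF2 list genes, 16.7% of all tested genes, 16.4% of the higher and 19.4% of the lower differentially expressed genes. Srxn1, which repairs oxidized peroxiredoxins, was at 123, 118 and 124 CPM in WT and 64.6, 63.4 and 64.6 CPM in AMPK-KO (1.9-fold lower), and the autophagy receptor gene Sqstm1 fell 1.63-fold. Members called higher included Gstt1 (1.02), Abcc4 (0.51) and Sod2 (0.30), the last of which NF-κB also induces. The pentose phosphate list, which also holds genes outside the pathway such as Idh1 and Mthfd2, had 5 lower and 0 higher of 13. Its share called was 38.5%, against 21.1% of all tested genes. Idh1 was among the lower members, whose number ranged from 2 to 6 over the alternatives. The pathway itself is a source of NADPH for this system. G6pdx, its first enzyme, was at 187, 186 and 175 CPM in WT and 165, 151 and 153 CPM in AMPK-KO (log2 difference -0.23, adjusted p = 0.0127), a call lost without AMPK-KO replicate 2 (-0.20, adjusted p = 0.073).

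Lipid genes differed by role. The PPAR list had 12 lower and 5 higher of 23. Fabp4, a fatty acid chaperone, was at 22.8, 25.8 and 27.3 CPM in WT and 9.46, 8.95 and 8.93 CPM in AMPK-KO (2.78-fold lower), the lipid droplet coat gene Plin2 at 1104, 1163 and 1103 CPM in WT and 761, 774 and 814 CPM in AMPK-KO (1.43-fold lower) and the fatty acid transporter gene Cd36 fell 1.56-fold. Pparg itself rose slightly, from 42.6, 39.8 and 41.1 to 52.3, 50.9 and 50.6 CPM (adjusted p = 0.00319). Of the LXR targets 8 were higher and 4 lower of 22. The cholesterol exporter gene Abcg1 was at 224, 225 and 221 CPM in WT and 335, 331 and 310.1 CPM in AMPK-KO (1.46-fold higher) and the lipoprotein gene Apoe was lower (log2 difference -0.47).

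Sterol synthesis had 3 members higher, 0 lower and 24 not called of 27 tested, and fatty acid synthesis 6 higher and 2 lower of 24. The desaturase gene Scd1 fell from 17.7, 15.7 and 15.0 to 10.9, 8.45 and 8.11 CPM, and Acsl1, which activates fatty acids, rose 1.57-fold. β-oxidation had 3 higher and 1 lower of 26. The shares called were 11.1% for sterol synthesis, 33.3% for fatty acid synthesis and 15.4% for β-oxidation, against 21.1% of all tested genes, and the higher members of the sterol list ranged from 1 to 8 over the alternatives. In mTORC1 and autophagy genes, the 2 other systems that AMPK governs, 6 and 2 members were lower and 1 and 2 higher of 33 and 39. The shares called in these lists were 21.2% and 10.3%, against the 21.1% of all tested genes. Mtor and Foxo3 were not called (adjusted p = 0.326 and 0.161).

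Eicosanoid genes changed at single steps, 5 higher and 8 lower of 25. Ptges, which makes prostaglandin E2, was at 7.75, 8.99 and 9.20 CPM in WT and 18.8, 19.4 and 17.4 CPM in AMPK-KO (2.14-fold higher), and Ltc4s, which makes the cysteinyl leukotrienes, at 30.1, 33.5 and 35.7 CPM in WT and 12.1, 14.3 and 14.6 CPM in AMPK-KO (2.42-fold lower). Alox5, the first enzyme of leukotriene synthesis, fell 1.45-fold, and Ptgr1, which inactivates prostaglandins and leukotriene B4 and is also an NRF2 target, fell 2.27-fold.

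The shares of energy genes called were 5.77% for the nuclear and 38.5% for the mitochondrial genes of the respiratory chain, 20.8% for the citric acid cycle and 30% for glycolysis and hypoxia, against 21.1% of all tested genes. The nuclear list, which also held the regulator genes Ppargc1a and Tfam, had 3 lower members, Ppargc1a among them, and 0 higher of 52. Of the mitochondrial genes 5 were lower of 13, all 13 with a negative difference. The lower members of the mitochondrial list ranged from 0 to 11 over the alternatives and those of the nuclear list from 0 to 17. mt-Co2, a subunit of complex IV, was at 1341, 1362 and 1367 CPM in WT and 1210.3, 1096 and 1258 CPM in AMPK-KO (log2 difference -0.19, adjusted p = 0.0227), and lost its call without AMPK-KO replicate 1 (-0.21, adjusted p = 0.0528), without AMPK-KO replicate 2 (-0.14, adjusted p = 0.087), without WT replicate 2 (-0.19, adjusted p = 0.0545) and without WT replicate 3 (-0.19, adjusted p = 0.0869). Mitochondrial genes held 1.68 to 1.90% of the counts in WT and 1.49 to 1.76% in AMPK-KO, which overlap. The coactivator gene Ppargc1a, a textbook target of AMPK, fell from 3.03, 2.85 and 3.88 to 2.05, 2.01 and 1.40 CPM (adjusted p = 0.0225), and lost its call without AMPK-KO replicate 2 (-0.92, adjusted p = 0.0522), without AMPK-KO replicate 3 (-0.68, adjusted p = 0.068) and without WT replicate 3 (-0.70, adjusted p = 0.103). The ribosomal protein list, which also held the regulator gene Myc, gave 6 lower of 79 (7.59% called), Myc among them. That count ranged from 2 to 36 over the alternatives.

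Of the citric acid cycle genes 4 were lower and 1 higher of 24. The higher member was Acod1, which makes itaconate in activated macrophages, at 73.9, 74.3 and 78.1 CPM in WT and 147, 143 and 145 CPM in AMPK-KO (1.92-fold higher, adjusted p = 8.30e-07), while Idh2 fell 1.43-fold. Glycolysis and hypoxia genes had 9 higher and 3 lower of 40 tested entries, Aldoa having 2 gene identifiers. Hif1a stood at 247, 240.1 and 261 CPM in WT and 361, 332 and 295 CPM in AMPK-KO (1.32-fold higher), the hexokinase gene Hk3 rose 1.41-fold and Adm, a secreted peptide that hypoxia induces, was at 26.8, 30.8 and 28.3 CPM in WT and 14.1, 12.4 and 12.7 CPM in AMPK-KO (2.19-fold lower).

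Lysosomal genes were lower more often than higher, 21 against 9 of 48. Ctsd, an aspartic protease of the lysosome, was at 4772, 5126 and 4914 CPM in WT and 2743, 2755 and 2893 CPM in AMPK-KO (1.77-fold lower, adjusted p = 4.90e-07), and Ctsb at 8819.6, 9208 and 9073 CPM in WT and 6831, 6914 and 6983 CPM in AMPK-KO (1.31-fold lower). In contrast Ctss and Ctsh, cysteine proteases of antigen-presenting cells, were 1.36-fold and 1.31-fold higher. The factors that drive lysosomal genes, Tfeb, Tfe3 and Mitf, were not called (adjusted p = 0.368, 0.971 and 0.0646). The E box CACGTG, which these factors can bind, was present in 33.3% of 36 lysosomal genes with a promoter and in 11.2% of all tested genes.

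Chaperone genes fell in both compartments. Of the heat shock list 20 were lower and 0 higher of 25 (median -0.32). Hsph1, a cochaperone of HSP70, was at 155, 154 and 148 CPM in WT and 86.2, 85.4 and 85.2 CPM in AMPK-KO (1.78-fold lower, adjusted p = 1.36e-06), and Hsp90aa1 fell from 770.4, 761 and 762 to 549, 571 and 546 CPM. Their factor Hsf1 was at 42.8, 38.8 and 36.4 CPM in WT and 33.5, 35.6 and 34.2 CPM in AMPK-KO and was not called (adjusted p = 0.102). In the endoplasmic reticulum, Hspa5, the chaperone BiP, was at 1494, 1543 and 1511 CPM in WT and 999, 1020.0 and 1011 CPM in AMPK-KO (1.5-fold lower, adjusted p = 2.30e-06) and Pdia4 fell 1.62-fold. The integrated stress and unfolded protein response list had 19 lower and 5 higher of 34, with Atf4 and Xbp1 not called (adjusted p = 0.27 and 0.098). Ern1, the sensor IRE1, rose by 0.42, and Slc7a11, a cystine transporter gene shared by the NRF2 list, rose by 0.52.

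Of 40 tested cell cycle genes 20 were lower, with 2 higher and a median of -0.18. Cdk1, the mitotic kinase, was at 63.3, 66.3 and 62.5 CPM in WT and 46.2, 41.9 and 46.5 CPM in AMPK-KO (1.43-fold lower). Cdkn1b, an inhibitor of the cycle, rose from 48.9, 50.1 and 52.7 to 65.3, 62.8 and 61.7 CPM. E2f1 was not called (adjusted p = 0.0981). The B16 melanoma marker sums were lower in the same samples, and the part of tumor cells in these counts was not tested.

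Matrix genes were lower in 14 and higher in 7 of 32. Plau, the urokinase protease, was at 528, 548 and 529.6 CPM in WT and 303, 318 and 311 CPM in AMPK-KO (1.72-fold lower), and Timp2, an inhibitor of metalloproteases, fell 1.69-fold. Tgfbi, a matrix protein that TGF-β induces, was at 1348, 1333 and 1304 CPM in WT and 2232, 2247 and 2224 CPM in AMPK-KO (1.68-fold higher, adjusted p = 3.86e-07), and Mmp14, a membrane metalloprotease, rose 1.61-fold. Mmp3 rose from 1.67, 1.496 and 1.18 to 6.32, 6.87 and 7.71 CPM, beside fibroblast marker sums that were higher in AMPK-KO. Integrin and PI3K-Akt genes were higher in 11 and lower in 1 of 32. That is a share called of 37.5%, against 21.1% of all tested genes, not matched for level. Itgb7, an integrin chain of gut-homing leukocytes, rose 1.82-fold, Pik3ap1, an adaptor that feeds PI3K, 1.31-fold and the VEGF receptor gene Flt1 1.99-fold.

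Outside the lists, the genes with the smallest adjusted p among the higher ones included Gdpd3, a lysophospholipase D gene, at 1.96, 3.14 and 2.69 CPM in WT and 37.2, 35.8 and 43.6 CPM in AMPK-KO (14.9-fold higher, adjusted p = 2.21e-07). No WT sample came near an AMPK-KO sample. Slamf8, a receptor of the SLAM family on myeloid cells, was at 64.3, 65.2 and 63.4 CPM in WT and 150.1, 143 and 147 CPM in AMPK-KO (2.28-fold higher). Ly6i, a gene of the Ly6 cluster of monocytes, rose from 5.30, 6.47 and 5.48 to 27.4, 29.3 and 29.7 CPM, and Cd300e, an activating receptor of monocytes, rose 2.24-fold. Pecam1, an adhesion molecule of endothelium that monocytes also carry, was at 39.4, 36.0 and 37.2 CPM in WT and 89.8, 91.7 and 92.1 CPM in AMPK-KO (2.43-fold higher). It makes up most of the endothelial marker sum, and of the other endothelial markers Kdr was higher and Cdh5 lower.

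Among the lower genes outside the lists, Bhlhe41, a transcriptional repressor of resident macrophages and of the clock, was at 73.5, 79.4 and 73.4 CPM in WT and 29.3, 25.9 and 28.9 CPM in AMPK-KO (2.69-fold lower). Npl, which breaks down sialic acid, was at 92.2, 105 and 98.8 CPM in WT and 41.1, 43.2 and 43.1 CPM in AMPK-KO (2.32-fold lower), and Gja1, the gap junction gene connexin 43, at 74.9, 74.6 and 76.5 CPM in WT and 30.4, 35.0 and 30.9 CPM in AMPK-KO (2.35-fold lower). Cdk18, a cyclin-dependent kinase, fell 2.96-fold and Padi4, which citrullinates histones, 2.31-fold.

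B cell genes were among the steepest falls of genes with a WT mean of at least 5 CPM. Cd79a, a chain of the B cell receptor complex, was at 4.44, 5.35 and 5.61 CPM in WT and 0.0949, 0.0997 and 0.124 CPM in AMPK-KO (47.5-fold lower, adjusted p = 3.39e-07), which is 320, 386 and 457 counts against 7, 8 and 10 counts. The constant region genes Igha and Ighd were at 7.05, 9.02 and 8.39 CPM in WT and 0.203, 0.474 and 0.198 CPM in AMPK-KO and at 7.87, 7.02 and 7.13 CPM in WT and 1.17, 0.785 and 0.656 CPM in AMPK-KO. Others of that type did not follow. Ighm, the constant region of IgM, was at 113, 115 and 108 CPM in WT and 164, 163 and 167 CPM in AMPK-KO (1.47-fold higher), and Cd79b, the partner of Cd79a, was at 15.0, 15.6 and 15.8 CPM in WT and 19.5, 20.1 and 21.3 CPM in AMPK-KO (adjusted p = 0.00713). Both are named after their values were seen. Of 9 B cell or plasma cell markers 5 were lower and 2 higher, and the summed level, which Ighm dominates, was higher in AMPK-KO (190.4 to 196 CPM against 154 to 161).

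Positions were compared last. Within 10 Mb of Prkaa1 9 of 59 tested genes (15.3%) were called, and within 10 Mb of Lyz2 17 of 102 (16.7%), against 21.1% of all. Over the autosomes and the X chromosome the share called ran from 16.8% on chromosome 13 to 26.9% on chromosome 6, where 6.72% of the 952 tested genes were differentially expressed.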

How the data were processed

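Bulk RNA-seq of sorted TAMs was compared between 3 AMPK-KO and 3 WT samples, grouped by their titles. The authors deposited raw read counts per gene, made by mapping with HISAT2 and counting with featureCounts. Tool versions, strand setting and the handling of multiply mapped reads are not given in the sources used here. The methods write GRCh38 and the submitters' notes GRCm38 and mm10. Identifiers were matched with their version to GENCODE M21 (54349 of 55401), and positions are on GRCm38.

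The count table of this experiment was fitted alone, without covariates. Genes were filtered with filterByExpr, scaled by TMM and tested by quasi-likelihood F-tests (edgeR 4.0.16, R 4.3.3), with Benjamini-Hochberg adjustment over 17532 genes. DESeq2 1.42.0 was an alternative. The fits were tested on simulated counts. Other alternatives were RLE and upper-quartile factors, 2 other count filters, a replicate block, unadjusted p and leaving out each sample. Library totals of 71019494 to 81671067 counts give a median SE of 0.05 on the log2 scale for genes at 100 CPM or more and of 0.64 under 1 CPM, and replicates of a group differed by more than counting error. CPM are counts per 1000000 library counts after TMM scaling, and values after ± are SEs.

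The 43 gene lists, the markers and the naming rule were chosen with earlier results of these data known. Named are the AMPK subunit genes and Lyz2, 12 differentially expressed genes of each direction, ranked by adjusted p and separate between groups, 6 of each direction by fold with at least 5 CPM in the higher group, 10 of each by adjusted p outside the lists, and in each list its regulators and up to 3 called members of each direction. Arg1, Ifng, Ighm, Cd79b, Kdr, Cdh5, Csf1r, Adgre1, Siglec1, Lyz1 and Ddx3y were named after their values were seen, and Gbp3, Tgtp1, Tgtp2 and Gclm by the rule for printed promoters. Not all genes covered by the rule are described. Promoters from RefSeq (GRCm38.p6) matched 11729 tested gene symbols. The counts of the other 6 samples of the series, early-stage and late-stage, were not used here. Some genes are not reported here.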

Additional observations from a re-analysis of the deposited data

How the results depend on the processing

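The replicate numbers of the labels did not pair the samples (correlations of the deviations of same-numbered samples of 0.042, -0.004 and 0.001). With the replicate block 3862 genes were called, 2029 higher and 1833 lower, and 580 were differentially expressed, 541 of them shared with the fit without it, so the pairing moved the counts by less than 1.5 times. With an unadjusted p, DESeq2 called 5837 genes, 2886 of them lower, and gave 366 lower differentially expressed genes, and edgeR called 5715 genes, 2801 of them lower, and gave 346. With an adjusted p DESeq2 called 4275 genes. RLE and upper-quartile factors and both other filters kept every count within 1.5 times of the main one. Upper-quartile factors moved the median of all tested genes to -0.017. Leaving out 1 sample at a time gave 2414 to 4039 called genes, 1334 to 2102 higher and 1068 to 1937 lower, and 295 to 407 higher and 174 to 248 lower differentially expressed genes. The lowest counts of calls came without WT replicate 3 (2414, with 1068 lower) and without AMPK-KO replicate 2 (2419, with 1085 lower). Over all settings, 32 of the named genes lost their call in at least 1 setting and 9 gained one. No gene called with all samples changed sign under any of these settings. Of the single genes, 7 that were not called changed sign: Tfe3 to -0.0038 with no filter beyond 1 count and to -0.010 with upper-quartile factors, and, over the fits that left out 1 sample, Tfe3 between -0.025 and 0.051, Keap1 between -0.035 and 0.016, Ppard between -0.0079 and 0.080, Lyz2 between -0.083 and 0.280, Prkab2 between -0.103 and 0.134, Arg1 between -0.030 and 0.030 and Prkag1 between -0.087 and 0.031. The causes of these shifts were not tested. Over all alternatives, the higher members of the MHC class II list numbered 11 to 13 and the lower members of the scavenger list 21 to 23, whereas the lower members of the ribosomal list ranged from 2 to 36 and those of the nuclear respiratory chain from 0 to 17. Scaling markers by library totals in place of TMM moved the log2 ratio of AMPK-KO to WT by less than the spread between replicates for each of the 17 marker sums. Depth limits genes under 1 CPM, of which 3.33% were called.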

Other observations

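Some neighbouring genes stood together among the differentially expressed ones. These groups were picked after the values were seen. Over all tested genes 2.05% were differentially expressed and higher. On chromosome 6, between 129000001 and 130000000 (GRCm38), 12 of 26 tested genes were differentially expressed and higher. They are receptors of the natural killer gene complex (Klra17, Klrk1, Klrb1f, Klrd1, Klrc1, Klri2, Klre1, Klrc2, Klri1, Klrh1) and the lectins Clec9a and Clec7a. Klrk1, the activating receptor NKG2D, was at 18.7, 25.01 and 24.8 CPM in WT and 62.1, 57.7 and 62.2 CPM in AMPK-KO. Klrc1, the inhibitory receptor NKG2A, was at 4.72, 4.79 and 5.27 CPM in WT and 15.8, 14.9 and 13.9 CPM in AMPK-KO. Klrh1 had at most 0.461 CPM in any sample and lost its call under several alternatives. Klrb1f lost its call without AMPK-KO replicate 1, AMPK-KO replicate 3, WT replicate 1 or WT replicate 2 (adjusted p of 0.0511 to 0.0718). Klri1 lost it without AMPK-KO replicate 1, AMPK-KO replicate 2 or WT replicate 3 (adjusted p of 0.0536 to 0.0597). Receptors of this family have close copies, and reads can be shared between them.

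A stretch of chromosome 1 (40000001 to 41000000) holds receptors of the interleukin-1 family. Of its 9 tested genes 5 were differentially expressed and higher, against 2.05% of all tested genes. The IL-18 receptor chains Il18r1 (6.96, 7.67 and 7.78 CPM in WT, 17.7, 16.8 and 15.9 CPM in AMPK-KO) and Il18rap, the IL-33 receptor Il1rl1, the IL-1 receptor Il1r1 and the decoy receptor Il1r2 all rose. IL-18 receptors are known from T and NK cells, whose marker sums were higher in the same samples. Genes of activated T and NK cells rose too, with log2 differences of 1.37 for perforin (Prf1), 1.40 for Cd8a, 1.67 for the checkpoint Lag3, 1.33 for Pdcd1 (PD-1), 1.22 for Tigit and 1.39 for Icos. Of the 10 T cell markers 9 were called higher and 0 lower, with a median of 0.64. Cd3e rose by 0.62 and Cd4 was not called (0.26, adjusted p = 0.128). All of these genes were picked after their values were seen. On chromosome 6, between 70000001 and 71000000, all 6 differentially expressed genes of 13 tested were immunoglobulin kappa segments and were lower. The share of lower differentially expressed genes over all tested genes was 1.28%.

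The metallothionein genes Mt1 and Mt2, which bind zinc and copper, lie side by side on chromosome 8. Mt2 was at 70.2, 114 and 96.3 CPM in WT and 29.5, 32.3 and 40.5 CPM in AMPK-KO (log2 difference -1.46, adjusted p = 0.000138), and Mt1 fell by 1.03 on the log2 scale.

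Some of the largest fold changes belong to genes that lie over others. Gm45717, at 0.208, 1.51 and 1.19 CPM in WT and 78.6, 77.0 and 81.4 CPM in AMPK-KO, overlaps Ifitm2 on the same strand, which was at a mean of 451 CPM in WT and 400.4 CPM in AMPK-KO and was not called. Gm28036, at 0.0139, 3.24 and 0.564 CPM in WT and 41.9, 46.1 and 22.5 CPM in AMPK-KO, overlaps Cpne1, Nfs1 and Rbm12 on the same strand. Reads of such genes cannot be told apart by position alone.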
